A study of Homo sapiens with 9 samples.

Results

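The miR-200 family comprises hsa-miR-200b-3p, hsa-miR-200a-3p, hsa-miR-429, hsa-miR-200c-3p and hsa-miR-141-3p, and these 5 miRNAs were taken by name from the 2652 miRNA names of a small RNA count table. No filter on their measured values was applied to choose them, but earlier results of these data were known when they were chosen. The table came from miTRAP (RNA bait trapping of miRNAs) in lysates of ES-2 cells, an ovarian cancer derived cell line of WT genotype that was left untreated in every group. In this assay a bait tagged with MS2 hairpins is held on a resin, cell lysate is passed over it, and the miRNAs that stay on the bait are sequenced. Of 9 single-end libraries, 3 were made from the lysate itself (input), 3 from resin carrying the MS2 control RNA and 3 from resin carrying the PD-L1 3'UTR, the 3' untranslated region of the mRNA that encodes the immune checkpoint ligand PD-L1 (gene CD274).

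Several features of the design limit what the groups can show. The study's methods give a larger amount of bait for the PD-L1 3'UTR than for the MS2 control, so the sequence of the bait and its amount changed together and cannot be told apart. All groups came from a single cell line. The study's methods describe experiments in general as biological triplicates or more. The labels number these libraries without saying whether they came from separate cultures, so p values measure the spread between these libraries, which may in part be technical. A lysate pools all its cells, so that fewer cells carrying a miRNA and less of it per cell cannot be told apart.

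The miR-200 family is known as a hallmark of the epithelial state. Its members repress ZEB1 and ZEB2, transcription factors that silence epithelial genes during epithelial-mesenchymal transition, and both factors in turn repress the family's own genes. Family members have also been described as regulators of PD-L1 in carcinoma cells. A miRNA recognises its targets mainly through the seed, bases 2 to 8 from its 5′ end, which pairs with a complementary stretch in the 3'UTR of an mRNA.

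The 5 mature sequences are shown because the family falls into seed groups that differ by a single base, and the CD274 3'UTR holds matches to both. All 5 were found in RefSeq (GRCh38.p14), read 5′ to 3′, with the seed in capitals.
hsa-miR-200b-3p: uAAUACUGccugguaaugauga
hsa-miR-429: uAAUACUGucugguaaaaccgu
hsa-miR-200c-3p: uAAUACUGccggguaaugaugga
hsa-miR-200a-3p: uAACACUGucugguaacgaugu
hsa-miR-141-3p: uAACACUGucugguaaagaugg

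The first 3 share the seed AAUACUG and the last pair shares AACACUG. Between hsa-miR-200b-3p and hsa-miR-200a-3p the seeds differed by U4C, with the base of the former first and positions counted from 1 at the 5′ end. The grouping by gene cuts across the grouping by seed. Mature hsa-miR-200b-3p (chr1:1167160-1167181), hsa-miR-200a-3p (chr1:1167916-1167937) and hsa-miR-429 (chr1:1169055-1169076) lie on the plus strand of chromosome 1 in a cluster whose hairpins span 1984 bases within the long non-coding RNA gene MIR200BHG. Mature hsa-miR-200c-3p (chr12:6963742-6963764) and hsa-miR-141-3p (chr12:6964155-6964176) lie on the plus strand of chromosome 12, where both hairpins span 493 bases within the long non-coding RNA gene MIR200CHG.

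Several members are close in sequence across the clusters. Over the 22 positions that both have, hsa-miR-200b-3p and hsa-miR-200c-3p were identical at 20 and differed by U11G and A22G. The pair with the other seed, hsa-miR-200a-3p and hsa-miR-141-3p, was also identical at 20 of 22 positions and differed by C17A and U22G. The number of mismatches allowed when reads were aligned was not given in the sources used here, so how far reads of such pairs may have been exchanged is uncertain. Each member had 1 row in the table, so its counts did not need to be summed over loci.

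The CD274 3'UTR was searched for letters complementary to the seeds, on the strand of the mRNA alone. In a GENCODE transcript of the gene, the 3'UTR of 2692 bases held 1 match to bases 2 to 8 of hsa-miR-200b-3p, hsa-miR-200c-3p and hsa-miR-429 (CAGTATT) and 3 matches to those of hsa-miR-200a-3p and hsa-miR-141-3p (CAGTGTT). They are shown with 8 bases to either side and the match in capitals, named by position in the 3'UTR.
Match to the hsa-miR-200b-3p seed, 434 to 440: gaacgggaCAGTATTtatgtatg
Match to the hsa-miR-200a-3p seed, 418 to 424: gagagtctCAGTGTTggaacggg
Match to the hsa-miR-200a-3p seed, 1188 to 1194: aacccgagCAGTGTTgccaagag
Match to the hsa-miR-200a-3p seed, 2387 to 2393: tggtgtgaCAGTGTTctttgtgt

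The first pair of matches lay within a stretch of 23 bases. No match was followed by an A opposite base 1, so there was no 8-base match (CAGTATTA or CAGTGTTA), and the 7-base forms AGTATTA and AGTGTTA were also not found in this window. A single such match is common. Among the first 2692 bases of the 4581 genes with a 3'UTR at least that long, CAGTATT occurred at least 1 time in 27.6% and CAGTGTT in 31.2%. How many of them held CAGTGTT 3 times, as the CD274 3'UTR does, was not counted. How much of the 3'UTR the bait carried was not analysed here.

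Library totals differed between groups and set how low a level could be seen. Counts summed to between 3794799 and 5983577 in the input, between 1156261 and 2236535 in the MS2 control and between 672824 and 1237652 in the PD-L1 3'UTR group. Levels are given below as CPM, read counts relative to the library total, scaled by TMM, a factor for each library that evens out differences in composition. A count of 3 was worth 0.675 to 1.01 CPM in the input, 1.19 to 2.27 in the MS2 control and 2.12 to 4.02 in the 3 libraries of the PD-L1 bait, and a miRNA listed at 0 could have had a level up to that floor. Floors and intervals cover counting error only, because PCR copies of the same molecule are counted as separate reads.

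The library PD-L1 3'UTR replicate 1 stood apart from the rest of its group. Of 408 miRNAs that passed the filter on low counts, 10 were more than 4-fold above both other libraries of the group, against 0 to 2 in the other 8 libraries. For such folds, a level under 3 counts was set to that of 3 counts. Markers of other cell types were high in it. The muscle miRNAs hsa-miR-1-3p, hsa-miR-133a-3p and hsa-miR-206 summed to 1831 CPM there, against 102 and 28.3 in replicates 2 and 3 and no more than 131 in the other groups. Liver hsa-miR-122-5p had 160 CPM there, against 0 and 0.725 in replicates 2 and 3, with 40.1 to 50.3 CPM in the MS2 control and 1.58 to 3.42 in the input. Over a list of 14 miRNAs of blood, liver, muscle and neurons, 11 of the 13 with counts in the group were highest in replicate 1, and 7 of them were more than 4-fold above both other libraries by the same measure. The summed level of that list was 4132 CPM in replicate 1, 1076 and 1240 CPM in replicates 2 and 3, 551 to 629 CPM in the MS2 control and 428 to 485 CPM in the input. The 3 most abundant of that list in the ES-2 lysate were hsa-miR-142-3p, hsa-miR-142-5p and hsa-miR-9-5p, with input means of 93.7, 126 and 225 CPM. At the other end, hsa-miR-144-3p, a partner of hsa-miR-451a in red blood cells, was at 0 in 8 of 9 libraries. The part of this library in the results below was not tested as a cause. Fold changes of the family members, counts of calls and correlations with the PD-L1 3'UTR group are given with and without it. Fold changes of other miRNAs are from all 9 libraries unless stated.

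**Figure D1:**
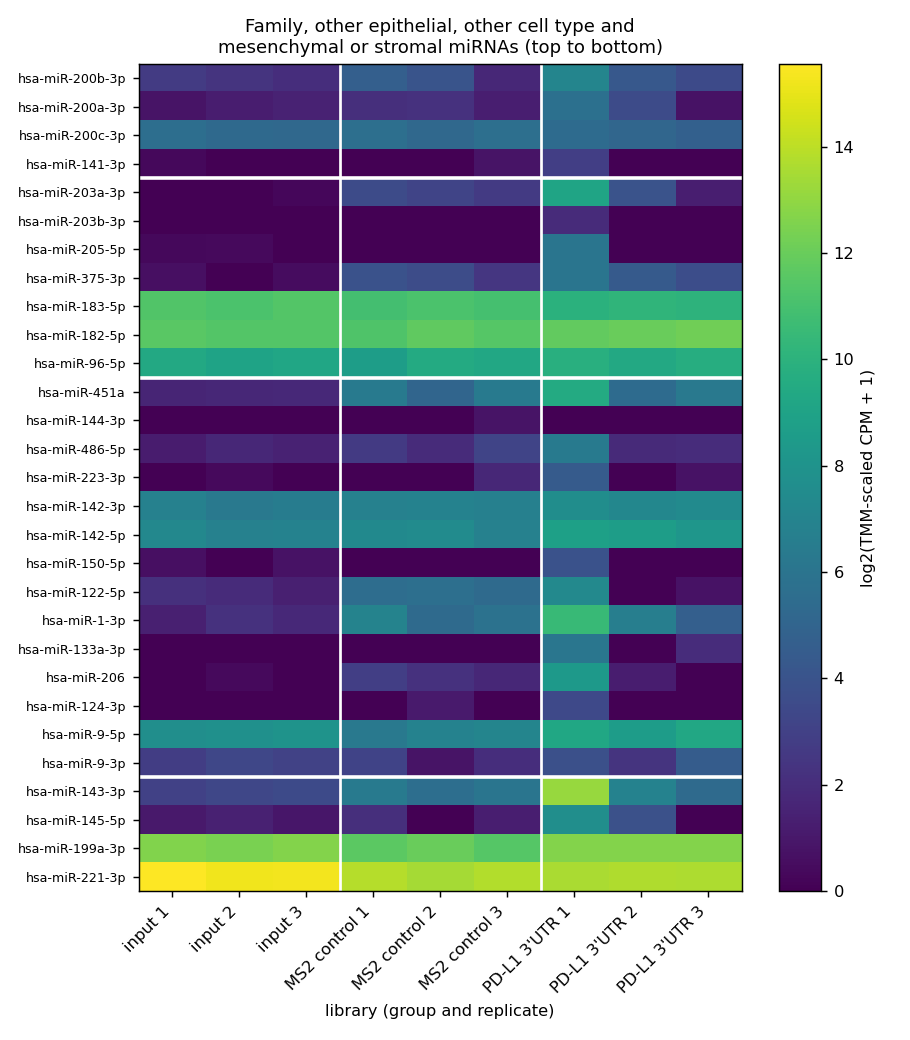
Levels of the family and of listed miRNAs in each of the 9 libraries, as log2 of TMM-scaled CPM plus 1 (colour), with white lines between lists and between groups. From top to bottom stand the 4 family members with counts, 7 other epithelial miRNAs, 14 miRNAs of other cell types and 4 of the 11 mesenchymal or stromal miRNAs. In the column of PD-L1 3'UTR replicate 1, hsa-miR-200b-3p, hsa-miR-200a-3p, hsa-miR-203a-3p, hsa-miR-1-3p and hsa-miR-143-3p were brighter than in the columns of replicates 2 and 3, while hsa-miR-200c-3p was 1.42 times the mean of those replicates.

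In the ES-2 lysate the family was low, and a single member made up most of it. The 5 members summed to 55.4, 43.8 and 41.4 CPM in the 3 input libraries. By comparison, hsa-miR-221-3p, a miRNA abundant in mesenchymal and many cancer cells, had 42000 ± 5352 CPM (SD, n = 3), and hsa-miR-182-5p, a miRNA of epithelial and sensory cells, had 2807 ± 175 CPM. Thus epithelial miRNAs were not all low in these cells. The order within the family was hsa-miR-200c-3p, then hsa-miR-200b-3p, then hsa-miR-200a-3p, with hsa-miR-141-3p at 1 count in all and hsa-miR-429 at 0.

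The leading member, hsa-miR-200c-3p, is the chromosome 12 miRNA with the seed AAUACUG. It had 186, 114 and 162 counts in the input libraries, or 48.9, 38.4 and 36.4 CPM. In the MS2 control it had 77, 93 and 67 counts, or 49.7, 36.8 and 50.6 CPM. In the PD-L1 3'UTR group it had 60, 25 and 36 counts, or 42.4, 33.5 and 26.1 CPM. The 3 groups overlapped, and the library that stood apart was not set off for this miRNA. By rank of counts it was 191st, 210th and 222nd among 1017 to 1070 names with a count in the input, and 211th to 226th among 633 to 785 names with the PD-L1 bait.

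Its mean level was 41.2 ± 6.68 CPM in the input, 45.7 ± 7.72 in the MS2 control and 34.0 ± 8.18 in the PD-L1 3'UTR group (SD, n = 3 each), so that neighbouring means lay within about the spread of their libraries. By edgeR's quasi-likelihood test with Benjamini-Hochberg adjustment over the 408 miRNAs, the log2 fold change of hsa-miR-200c-3p between PD-L1 3'UTR and MS2 control was -0.42 ± 0.27 (SE, adjusted p = 0.205). Against the input the log2 fold change was -0.28 ± 0.27 (adjusted p = 0.375), and between MS2 control and input it was 0.14 ± 0.26 (adjusted p = 0.629). With replicate 1 of the PD-L1 3'UTR group left out, the values were -0.59 ± 0.31 (adjusted p = 0.135) against the MS2 control and -0.54 ± 0.31 (adjusted p = 0.155) against the input. No direction is given for hsa-miR-200c-3p in the comparisons with the input, because scaling by library totals turned the value for the PD-L1 3'UTR to 0.29 (adjusted p = 0.366) and raised that for the MS2 control to 0.78 (adjusted p = 0.0241). That scaling also moved the median of all 408 miRNAs against the input, from 0.04 to 0.60 for the PD-L1 3'UTR and from 0.02 to 0.65 for the MS2 control.

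The chromosome 1 member with the same seed, hsa-miR-200b-3p, was second to it in the input. It had 21, 12 and 14 counts in the input libraries, or 5.52, 4.04 and 3.15 CPM. In the MS2 control it had 39, 39 and 3 counts, or 25.2, 15.4 and 2.27 CPM. In the PD-L1 3'UTR group it had 190, 14 and 14 counts, or 134, 18.8 and 10.2 CPM. The input libraries lay below all 3 PD-L1 3'UTR libraries, while the MS2 control overlapped both, with its replicate 3 the lowest library of all. Replicate 1 of the PD-L1 3'UTR group held 87.2% of the group's counts and was 9.30 times the mean CPM of the other pair. Its 95% Poisson interval of 116 to 155 CPM lay above those of replicate 2 (10.2 to 31.5 CPM) and replicate 3 (5.55 to 17.0 CPM).

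The mean level of hsa-miR-200b-3p was 54.4 ± 69.4 CPM in the PD-L1 3'UTR group, 14.3 ± 11.5 in the MS2 control and 4.24 ± 1.20 in the input (SD, n = 3 each). Against the input it was higher with a log2 fold change of 3.70 ± 0.98 (SE, edgeR adjusted p = 0.00681). Against the MS2 control the log2 fold change was 1.93 ± 0.91 (edgeR adjusted p = 0.0913), which did not pass the threshold. Between MS2 control and input it was 1.77 ± 0.97 (edgeR adjusted p = 0.127). The SD of the PD-L1 3'UTR group was larger than its mean.

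Without PD-L1 3'UTR replicate 1, neither comparison of hsa-miR-200b-3p passed the test. The log2 fold change against the MS2 control was then -0.01 ± 0.73 (edgeR adjusted p = 0.988), and that against the input was 1.67 ± 0.75 (edgeR adjusted p = 0.0736). Leaving out replicate 3 of the same group instead gave 2.39 ± 0.81 against the MS2 control (edgeR adjusted p = 0.031). The call against the MS2 control also changed with the tool, since DESeq2 gave 1.86 ± 0.81 (adjusted p = 0.0356) and edgeR with no filter on low counts gave 1.91 ± 0.46 (adjusted p = 0.000274). Without replicate 1 as well as without a filter it was 0.003 (adjusted p = 1).

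The other chromosome 1 member with counts, hsa-miR-200a-3p, carries the seed AACACUG. It had 3, 4 and 8 counts in the input libraries, or 0.788, 1.35 and 1.80 CPM. In the MS2 control it had 5, 9 and 2 counts, or 3.23, 3.56 and 1.51 CPM. In the PD-L1 3'UTR group it had 75, 8 and 1 counts, or 53.0, 10.7 and 0.725 CPM. Replicate 1 was far above every other library. Replicate 3, with 1 count, had the lowest value, and its 95% Poisson interval of 0.01835 to 4.04 CPM covered the values of all libraries of both other groups. The groups therefore overlapped. Replicate 1 held 89.3% of the group's counts, and its 95% Poisson interval of 41.7 to 66.5 CPM lay above that of replicate 2 (4.63 to 21.1 CPM).

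With so few counts, hsa-miR-200a-3p did not pass the filter and was compared by an exact permutation test over libraries. With 3 libraries against 3, the smallest p that this exact permutation test can give is 0.1. The two-sided exact permutation p was 0.4 for its mean of 21.5 ± 27.8 CPM in the PD-L1 3'UTR group against 2.77 ± 1.10 CPM in the MS2 control (SD, n = 3 each). It was also 0.4 against the input mean of 1.31 ± 0.507 CPM, and 0.2 between MS2 control and input. Fitted by edgeR with no filter on low counts, its log2 fold change was 2.88 ± 0.68 against the MS2 control (adjusted p = 0.00018) and 3.71 ± 0.69 against the input (adjusted p = 7.46e-07). Without PD-L1 3'UTR replicate 1 the same fit gave 0.90 ± 1.07 (adjusted p = 0.701) and 1.73 ± 1.07 (adjusted p = 0.311). Removing the filter also took the SE of hsa-miR-200b-3p against the MS2 control from 0.91 to 0.46, at folds of 1.93 and 1.91. The p values of the unfiltered fit may therefore understate the spread between these libraries.

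The chromosome 12 partner of this seed, hsa-miR-141-3p, was near the floor. It had 1 count in input replicate 1, 1 count in MS2 control replicate 3 and 9 counts in PD-L1 3'UTR replicate 1, worth 6.36 CPM, and it was listed at 0 in the other 6 libraries. Every count of it in the PD-L1 3'UTR group came from the library that stood apart. The two-sided exact permutation p over libraries was 1.0 in each of the 3 comparisons, and no fold is given here because the control groups lay at or under the floor of 3 counts.

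The third chromosome 1 member, hsa-miR-429, was listed at 0 in all 9 libraries, including PD-L1 3'UTR replicate 1. Its hairpin lies in the same host gene as those of hsa-miR-200b-3p and hsa-miR-200a-3p. At this depth the floor of 3 counts was 0.675 CPM in the deepest input library and 4.02 CPM in the shallowest PD-L1 3'UTR library.

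**Figure D2:**
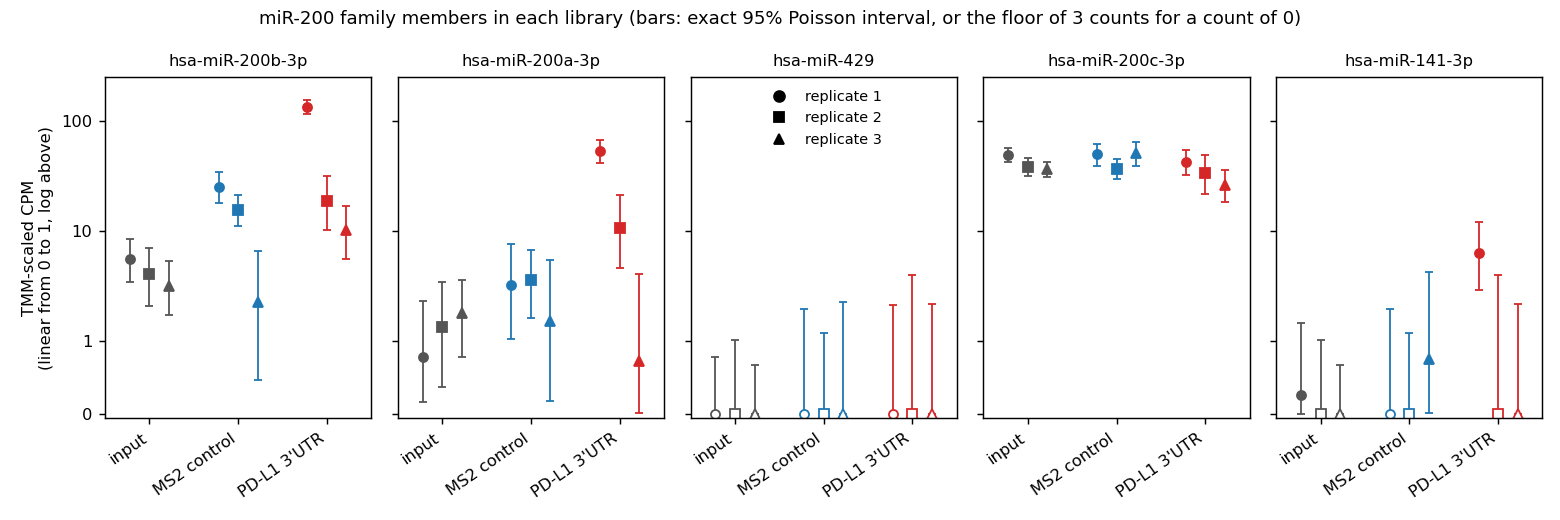
TMM-scaled CPM of each of the 5 members in each library, on an axis that is linear from 0 to 1 and logarithmic above, with exact 95% Poisson intervals as bars. A count of 0 has an open symbol and a bar up to the floor of 3 counts. The marker shape gives the replicate. For hsa-miR-200b-3p, hsa-miR-200a-3p and hsa-miR-141-3p the circle of PD-L1 3'UTR replicate 1 (134, 53.0 and 6.36 CPM) sat above all other libraries, whereas hsa-miR-200c-3p stayed between 26.1 and 50.6 CPM in all 9.

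Calls across the whole table set the scale for these results. Between PD-L1 3'UTR and MS2 control, edgeR called 31.4% of the 408 miRNAs higher and 28.7% lower at an adjusted p under 0.05, and neither of the 2 members that passed the filter was called. Between PD-L1 3'UTR and input, 34.1% were called higher and 32.4% lower, and hsa-miR-200b-3p was called higher. In the fit without PD-L1 3'UTR replicate 1, 25.2% of 469 miRNAs were called higher and 28.6% lower than in the MS2 control. Relative to the input that fit called 27.5% higher and 31.6% lower, and neither member was called in either comparison. Between MS2 control and input, 32.8% were called higher and 37% lower, with neither member called. The call of 1 of 2 members against the input is to be read against that background. It also concerns a miRNA that passed the filter only with the PD-L1 3'UTR libraries.

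**Figure D3:**
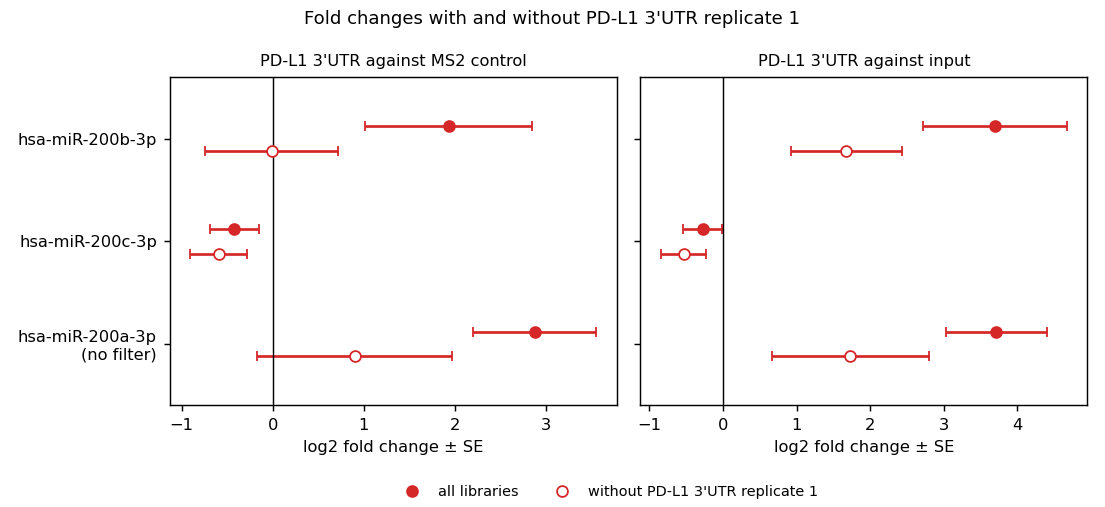
Log2 fold changes (points) with their standard errors (bars) of the PD-L1 3'UTR group against the MS2 control (left) and the input (right), with all libraries (filled) and without PD-L1 3'UTR replicate 1 (open). For hsa-miR-200a-3p both values come from the fit with no filter on low counts. The values of hsa-miR-200b-3p moved from 1.93 to -0.01 and from 3.70 to 1.67, and those of hsa-miR-200c-3p from -0.42 to -0.59 and from -0.28 to -0.54.

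The make-up of the family differed between libraries in the same way. In the input, the chromosome 1 members held 11.4 to 12.3% of the family's counts, and hsa-miR-200c-3p held 88.2%, 87.7% and 88.0%. In the MS2 control the chromosome 1 share was 36.4%, 34.0% and 6.85%. In the PD-L1 3'UTR group it was 79.3%, 46.8% and 29.4%. The input libraries were alike, MS2 control replicate 3 was below them, and all 3 PD-L1 3'UTR libraries were above them.

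The precision of these shares was limited by 47 to 334 family counts in a library. The exact (Clopper-Pearson) 95% interval of the chromosome 1 share was 74.6 to 83.6% in PD-L1 3'UTR replicate 1, 32.1 to 61.9% in replicate 2 and 17.5 to 43.8% in replicate 3. In the MS2 control it was 27.8 to 45.6%, 26.3 to 42.5% and 2.26 to 15.3%. Replicates 2 and 3 of the PD-L1 3'UTR group were therefore not distinguishable from MS2 control replicates 1 and 2 at this depth. The input intervals reached up to 19.2%, which overlapped the interval of PD-L1 3'UTR replicate 3 and that of MS2 control replicate 3.

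By seed, the members with AACACUG, for which the CD274 3'UTR held 3 matches, were the smaller part of the family in every library. They held 1.90%, 3.08% and 4.35% of its counts in the input and 4.13%, 6.38% and 4.11% in the MS2 control. In the PD-L1 3'UTR group they held 25.1%, 17.0% and 1.96%. The exact 95% interval of replicate 3 (0.0496 to 10.4%) overlapped those of every input library, so a larger share was not seen in all 3 libraries of the group.

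**Figure D4:**
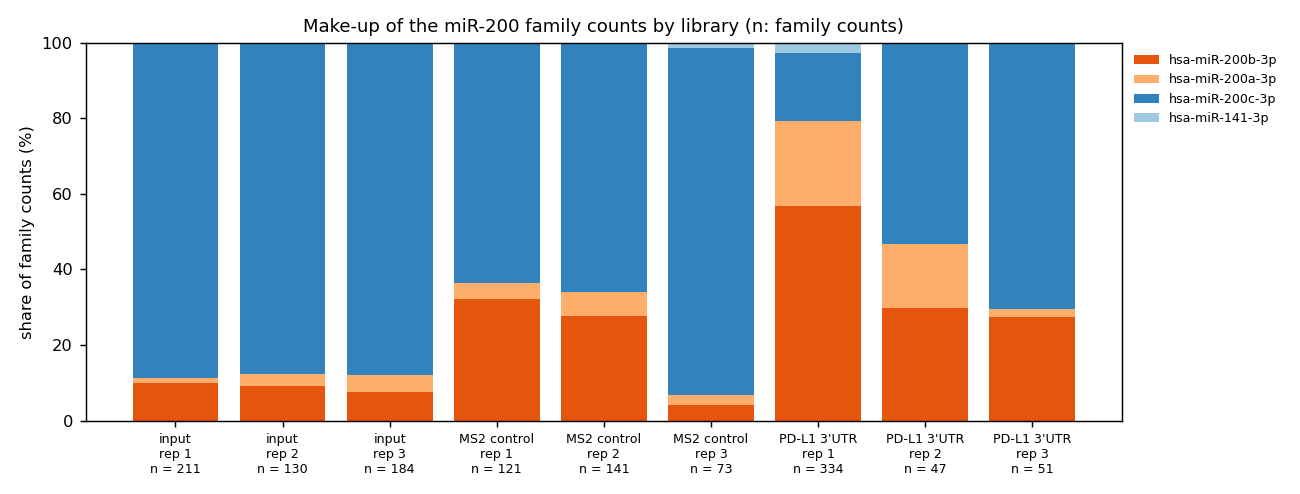
Share of the family's counts held by each member in each library, in percent, with the number of family counts under each bar. The shares of hsa-miR-200b-3p and hsa-miR-200a-3p together were 11.4 to 12.3% in the input and 79.3% in PD-L1 3'UTR replicate 1, and hsa-miR-429 is not drawn because it had no counts.

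The passenger strands, cut from the other arm of the same hairpins, gave few counts. From the hairpin of hsa-miR-200a-3p, hsa-miR-200a-5p had 1, 3 and 1 counts in the input, 2, 0 and 0 in the MS2 control and 11, 1 and 0 with the PD-L1 bait, so that 91.7% of the group's 12 counts were again in replicate 1. The strand hsa-miR-200b-5p was at 0 in all 9 libraries. From chromosome 12, hsa-miR-200c-5p had 2 counts and hsa-miR-141-5p had 3 in the input, and both were at 0 in all 6 trap libraries. These counts lie at or near the floor of 3 in all libraries except PD-L1 3'UTR replicate 1.

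Among the other epithelial miRNAs, some were far higher in PD-L1 3'UTR replicate 1 than in any other library, and others were abundant in all 9. The epithelial differentiation miRNA of skin, hsa-miR-203a-3p, had 0, 0 and 1 counts in the input, 17, 21 and 7 in the MS2 control and 772, 11 and 2 with the PD-L1 bait. In squamous epithelia hsa-miR-205-5p is a characteristic miRNA, and it had 94 counts in replicate 1, 2 counts over the input libraries and 0 in the other 5 trap libraries. These 2 were like hsa-miR-200b-3p in standing out in a single library. In contrast, hsa-miR-183-5p, hsa-miR-182-5p and hsa-miR-96-5p, which come from a shared cluster, were 0.865, 0.834 and 1.20 times the mean of the other pair in replicate 1.

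Of the 7 other epithelial miRNAs, 5 passed the filter. Between PD-L1 3'UTR and MS2 control, 2 were higher and 1 was lower, with a median log2 fold change of 0.53 beside 0.02 over all miRNAs tested, of which 31.4% were higher and 28.7% lower. The higher ones were hsa-miR-182-5p (0.53 ± 0.15, SE, edgeR adjusted p = 0.0105) and hsa-miR-203a-3p (4.51 ± 1.48, edgeR adjusted p = 0.0215). The lower was hsa-miR-183-5p (-0.96 ± 0.13, edgeR adjusted p = 8.6e-05). The fold change of hsa-miR-96-5p was 0.44 ± 0.22 (edgeR adjusted p = 0.118). Without PD-L1 3'UTR replicate 1 the list had 1 higher, hsa-miR-182-5p, and 1 lower, hsa-miR-183-5p, with a median of 0.38. In that fit 25.2% of 469 miRNAs were called higher and 28.6% lower, the median of all was -0.10, and hsa-miR-203a-3p stood at -0.14 ± 0.90 (edgeR adjusted p = 0.915). Against the input 3 were higher and 1 was lower, with and without that library, and the medians were 0.57 and 0.60. Over all miRNAs tested against the input, 34.1% were higher and 32.4% lower with it, and 27.5% and 31.6% without it. Between MS2 control and input, 1 was higher, hsa-miR-375-3p, a miRNA of endocrine and epithelial cells, and none was lower. Over all miRNAs 32.8% were higher and 37% lower there.

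Mesenchymal or stromal miRNAs were listed as a counterpart to the family. Of 11, 9 passed the filter, and 6 were higher and 1 lower in the PD-L1 3'UTR group than in the MS2 control, beside 31.4% and 28.7% of all miRNAs tested, with a median log2 fold change of 1.01. Without PD-L1 3'UTR replicate 1 there were 5 higher and 1 lower, beside 25.2% and 28.6% of all, with a median of 1.02. Among the most abundant, hsa-miR-155-5p (1.41 ± 0.17, SE, edgeR adjusted p = 2.85e-05) and hsa-miR-222-3p (1.22 ± 0.17, edgeR adjusted p = 0.000119) were higher, hsa-miR-10b-5p was lower (-0.46 ± 0.12, edgeR adjusted p = 0.005) and hsa-miR-221-3p stood at -0.07 ± 0.13 (edgeR adjusted p = 0.655). Against the input 4 were higher and 2 lower with and without that library, with medians of 0.12 and 0.07. The shares of all miRNAs were 34.1% higher and 32.4% lower with it, and 27.5% and 31.6% without it. Between MS2 control and input 5 were lower and none higher, beside 37% lower and 32.8% higher of all.

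Of the 14 miRNAs of other cell types, 7 passed the filter. Between PD-L1 3'UTR and MS2 control 3 were higher and none lower, beside 31.4% and 28.7% of all miRNAs tested. The median log2 fold change was 1.89, beside 0.02 over all. The 3 were hsa-miR-142-3p, hsa-miR-142-5p and hsa-miR-9-5p, the most abundant of the list in the lysate. The markers of muscle, red blood cells and liver did not pass there, with hsa-miR-1-3p at 2.81 ± 1.12 (SE, edgeR adjusted p = 0.0507), hsa-miR-451a at 2.12 ± 0.87 (edgeR adjusted p = 0.0558) and hsa-miR-122-5p at 0.27 ± 1.19 (edgeR adjusted p = 0.867). Without PD-L1 3'UTR replicate 1, 8 passed the filter, hsa-miR-142-5p and hsa-miR-9-5p were higher than in the MS2 control and hsa-miR-122-5p was lower. Over all 469 miRNAs of that fit, 25.2% were higher and 28.6% lower. The median of the list was 0.21, beside -0.10 over all. There hsa-miR-1-3p stood at -0.24 ± 0.58 (edgeR adjusted p = 0.753) and hsa-miR-451a at -0.09 ± 0.42 (edgeR adjusted p = 0.883). Against the input 6 of 7 were higher, beside 34.1% of all miRNAs called higher and 32.4% lower. Without that library 5 of 8 were higher and 1 lower, beside 27.5% and 31.6% of all. Between MS2 control and input, 3 were higher and 1 lower, beside 32.8% and 37% of all. The higher ones were hsa-miR-1-3p (4.84 ± 1.35, SE, edgeR adjusted p = 0.00811), hsa-miR-451a (4.80 ± 1.06, edgeR adjusted p = 0.00215) and hsa-miR-122-5p (4.15 ± 1.42, edgeR adjusted p = 0.0228), and the lower was hsa-miR-9-5p (-1.03 ± 0.25, edgeR adjusted p = 0.00371). The 3 markers of muscle, red blood cells and liver were thus also higher in the MS2 control than in the lysate, where the value of hsa-miR-200b-3p was 1.77. Their part in the values of hsa-miR-200b-3p was not tested.

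Within the PD-L1 3'UTR group, the family members with counts were highest in replicate 1 in 4 of 4 cases. More than 4-fold above both other libraries were 2 of them, hsa-miR-200b-3p and hsa-miR-200a-3p, while the 9 counts of hsa-miR-141-3p did not reach that over the floor of 3 counts. Over all 976 names with counts in the group, 42.2% were highest in replicate 1 and 2.77% were that far above. For the mesenchymal or stromal list, 7 of 11 were highest there and 3 were that far above. Among these, hsa-miR-143-3p, a miRNA of smooth muscle and fibroblasts, had 12888 counts in replicate 1 against 90 and 55 in replicates 2 and 3.

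The miRNAs whose pattern over the 9 libraries was most like that of each member were taken from the tested miRNAs outside the family, by Pearson's r of log2 CPM. For hsa-miR-200b-3p they were hsa-miR-203a-3p (r = 0.886), hsa-miR-148a-3p (r = 0.876) and hsa-miR-143-3p (r = 0.869). Over the 8 libraries without PD-L1 3'UTR replicate 1, r was 0.686, 0.646 and 0.62 for the same miRNAs. All 3 had their highest count in PD-L1 3'UTR replicate 1, and hsa-miR-148a-3p had 29327 counts there against 355 and 249 in replicates 2 and 3. For hsa-miR-200c-3p they were hsa-miR-935 (r = 0.855), hsa-miR-10394-3p (r = 0.737) and hsa-miR-3689e (r = 0.692), none of which was highest in that library, and without it r was 0.869, 0.773 and 0.787. The libraries share group, depth and scaling, so these values are descriptions of likeness and nothing is tested by them.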

How the data were processed

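Small RNA of ES-2 cells was measured in 9 libraries. The authors deposited unnormalised counts, the reads assigned to each mature miRNA locus, made with cutadapt 1.18, Bowtie2 2.2.6 and featureCounts 1.6.3 on hg38 per the submitters' processing notes and on miRBase mature miRNAs per the study's methods. Reads of the 2883 rows were summed over the loci of each of 2652 names. Depth per library is given with the results.

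Tests used edgeR 4.0.16 in R 4.3.3 (filterByExpr by group, minimum count of 10, TMM, glmQLFit and glmQLFTest on 3 group means over all 9 libraries, two-sided), with Benjamini-Hochberg adjustment over the 408 miRNAs kept and a threshold of 0.05. The standard error is the log2 fold change divided by the square root of the F statistic. Exact permutation tests and 95% Poisson and Clopper-Pearson intervals used scipy 1.17.1. The edgeR steps were tested on simulated counts in which no library stood apart, so that test does not cover a library like PD-L1 3'UTR replicate 1. Correlations used log2 CPM with a prior count of 2.

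Members, gene lists and tests were chosen with earlier results of these data known. Named miRNAs are the 5 members, their passenger strands, up to 4 most abundant of the epithelial and mesenchymal lists, markers of other cell types and the 3 tested miRNAs most correlated with each member. In addition, hsa-miR-205-5p, hsa-miR-375-3p, hsa-miR-143-3p, hsa-miR-199a-3p and hsa-miR-199b-3p were described after their values were seen. Deviations of same-numbered libraries from their group means over miRNAs were weakly correlated (r from -0.18 to 0.13), and the numbers were not used to pair them. Between the MS2 control and PD-L1 3'UTR groups r was 0.07 to 0.13 for equal numbers and -0.12 to 0.03 for unequal ones. Pairing of these groups can therefore not be excluded. Alternatives were DESeq2 1.42.0, its size factors in edgeR, library totals, other filters, 2 groups alone, a replicate block, single loci and leaving out each library. Robust empirical Bayes and the fit with neither filter nor PD-L1 3'UTR replicate 1 were added after seeing the data. Seed matches were sought in GENCODE v44lift37 transcripts, whose GRCh37 coordinates were not used.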

Additional observations from a re-analysis of the deposited data

How the results depend on the processing

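The main limits are depth and a single library. The members other than hsa-miR-200c-3p had at most 39 counts in every library but PD-L1 3'UTR replicate 1, and the cause of the changes below was not tested. For hsa-miR-200b-3p, leaving out 1 library gave log2 fold changes of -0.011 to 2.50 between PD-L1 3'UTR and MS2 control (-0.011 without PD-L1 3'UTR replicate 1 and 2.39, which passed, without replicate 3) and 1.67 to 4.09 against the input, where only the 1.67 without replicate 1 missed the threshold. With no filter and without replicate 1 it was 1.49, which also missed it. In the main fit hsa-miR-200b-3p passed the filter only with the PD-L1 3'UTR libraries. The fit with no filter (1.91) and DESeq2 (1.86) passed against the MS2 control. Between MS2 control and input its value passed with library totals (2.41), no filter (1.48), only those groups (1.74) and DESeq2 (1.83). For hsa-miR-200c-3p, library totals gave 0.29 for PD-L1 3'UTR and 0.78, which passed, for MS2 control against input, where no filter gave -0.13 and leaving out 1 library -0.11 to 0.30. Its mean level under library totals was 31.3 CPM in the input and 53.8 CPM in the MS2 control. Without a filter and without PD-L1 3'UTR replicate 1, hsa-miR-200a-3p stood at 0.90 against the MS2 control and 1.73 against the input, and hsa-miR-141-3p at -2.15 and -1.49, against 3.08 and 3.74 with that library. These values of hsa-miR-141-3p depend on the prior count, rest on at most 1 count in each control group and give no direction. In some filtered fits with 1 library left out hsa-miR-200a-3p passed the filter, but only through PD-L1 3'UTR replicates 1 and 2 (60.6 and 11.9 CPM by library total). It had at most 4.025 CPM in the other libraries, so these fits select on the group where it is high and give no support. With the MS2 control 4 such fits gave 2.63 to 3.46, and those without MS2 control replicates 1, 2 or 3 missed the threshold. With the input 4 fits, those without input replicates 1, 2 or 3 or PD-L1 3'UTR replicate 3, passed it with 3.59 to 4.48. Against the input 132 miRNAs were lower, 201 with no filter, and library totals changed the split of higher to lower from 139 and 132 to 192 and 90, and from 134 and 151 to 199 and 104 for MS2 control against input. The replicate block, with numbers not known to pair the libraries, gave 126 higher and 117 lower for PD-L1 3'UTR against MS2 control and changed no member's call, with hsa-miR-200b-3p at 1.59 (edgeR adjusted p = 0.0564) and, against the input, 3.00 (edgeR adjusted p = 0.00457). Outside the filtered fits that leave out 1 library, 105 of 120 values kept their direction and side of the threshold, or a count within 1.5 times. These 120 include counts of calls over all miRNAs and the fits with neither filter nor PD-L1 3'UTR replicate 1. There hsa-miR-200b-3p against the MS2 control fell to 0.003 and still counted as kept, so the number does not measure how stable the family's values are.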
